A study of Mus musculus with 3 samples.

Results

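The squares of tissue described here are *Cdkn2a*-positive bins, which are 27 µm squares of thymus sections from 2 *Trp53*-/- (KO) mice in which at least 1 *Cdkn2a* transcript was counted. Transcripts were captured on slides with barcoded spots 4.8 µm apart and counted once each through their unique molecular identifier (UMI). A bin was kept when it held at least 300 genes and at most 30% mitochondrial UMIs, and it was used when the surrounding 7 × 7 bins had more UMIs of 6 genes of thymocytes (*Ptcra*, *Themis*, *Cd8b1*, *Arpp21*) and cortical epithelium (*Psmb11*, *Prss16*) than of the B cell genes *Ms4a1*, *Cd79b* and *Cd79a*. This rule left 10017 bins in mouse section KO1134 and 16567 in KO1308, called thymus-side bins here. *Cdkn2a*-positive bins made up 1535 and 816 of them, 2351 of 26584 in all, out of 56744 kept bins in the 3 sections of the study. The bins were selected on their *Cdkn2a* count and on the 9 genes of the window, so the levels of these genes are a description and carry no test.

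The KO mice were female C57BL/6 animals of 17 weeks (labelled KO1134) and 21 weeks (labelled KO1308) that lacked *Trp53* in every cell from birth. The third section came from a female *Trp53*+/+ (WT) mouse of the same strain, aged 17 weeks and labelled WT1101. All mice were perfused with saline and each gave 1 section, so mouse, age and section cannot be told apart, and the KO sections were permeabilised for longer than the WT section. A supplementary sheet of the study describes mouse KO1308 with spot statistics that resemble the section labelled KO1134, so the sections are named by their labels only, KO1134 and KO1308. A bin can hold several cells, and more cells of a type cannot be told apart from more RNA per cell.

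*Cdkn2a* encodes 2 unrelated tumour suppressor proteins from overlapping reading frames. p16Ink4a binds the cyclin D kinases Cdk4 and Cdk6 and so keeps the Rb proteins active and E2F target genes off, while p19Arf binds Mdm2 and stabilises p53. The locus is kept silent by Polycomb proteins in most young tissues, it is switched on by oncogene signalling and during senescence, and its transcripts build up in cells that have lost p53 or Rb. Thymocytes pass from a double-negative stage, where Notch signalling and division are strong, through a double-positive stage in the cortex to mature single-positive cells in the medulla.

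The gene (ENSMUSG00000044303) spans bases 89274471 to 89294653 of the minus strand of chromosome 4 in GRCm38, and each product has its own start. The 2 coding transcripts of the annotation have 3 exons each and share 575 bases, which is 67.5% of the transcript that starts at 89282192 (p16Ink4a) and 64.2% of the one that starts at 89294653 (p19Arf). The deposited table gives 1 count per gene, so the UMIs below belong to either transcript. The RefSeq promoters of both starts (GRCm38.p6, 250 bases before to 50 after the RefSeq start, minus strand) are shown because they are the switches of the gene that defines the bins. Capitals mark the E2F-type sequence TTTCCCGC and the GC box GGGCGG, searched on both strands together with the E2F-type sequence TTTGGCGC, the E-box CACGTG, the ETS-type sequence GCGGAAG and the TATA box TATAAA, and no matches overlap.
p19Arf start, chr4:89294570-89294869: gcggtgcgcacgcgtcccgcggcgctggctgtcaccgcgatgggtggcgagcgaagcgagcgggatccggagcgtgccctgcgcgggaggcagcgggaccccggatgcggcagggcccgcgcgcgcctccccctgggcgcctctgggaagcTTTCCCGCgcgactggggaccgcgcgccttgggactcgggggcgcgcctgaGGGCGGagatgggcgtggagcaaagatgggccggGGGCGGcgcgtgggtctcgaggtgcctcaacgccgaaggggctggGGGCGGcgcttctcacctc
p16Ink4a start, chr4:89282143-89282442: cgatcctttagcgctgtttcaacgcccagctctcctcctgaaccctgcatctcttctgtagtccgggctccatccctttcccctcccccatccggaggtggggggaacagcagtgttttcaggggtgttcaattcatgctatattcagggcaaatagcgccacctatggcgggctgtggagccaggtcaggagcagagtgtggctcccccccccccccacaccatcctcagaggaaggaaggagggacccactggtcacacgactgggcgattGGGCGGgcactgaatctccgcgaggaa
The p19Arf window had a G and C content of 77% with 45 CpG dinucleotides and the p16Ink4a window 60.3% with 12, against medians of 52.7% and 7 over 32851 promoters of this length. TTTCCCGC occurred once in the p19Arf window, as in 1.07% of all promoters, and not in the p16Ink4a window. GGGCGG occurred 3 times and once, and in 35.7% of all promoters. TTTGGCGC (0.514% of promoters), CACGTG (7.15%), GCGGAAG (5.77%) and TATAAA (13.6%) were in neither window, which says only that these letters are not there.

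*Cdkn2a* was found in 15.3% (14.6 to 16.04) of thymus-side bins of KO1134, in 4.93% (4.60 to 5.27) of those of KO1308 and in 0.132% (0.0925 to 0.183), or 36 of 27265, of the WT bins, with 95% exact binomial intervals in brackets that cover counting error only. Scaled to the UMIs of all thymus-side bins, the level was 73.8 CPM (counts per 1000000 UMIs; 70.4 to 77.2, exact Poisson interval) in KO1134, 53.5 CPM (50.1 to 57.1) in KO1308 and 0.935 CPM (0.661 to 1.28) in WT. B cell-side bins, the other kept bins of the same slides, where the 6 thymus genes did not exceed the 3 B cell genes, are given for comparison. The source of their *Cdkn2a* UMIs was not tested. There 74 of 2027 bins (3.65%, 2.88 to 4.56) of KO1134 and 18 of 858 (2.10%, 1.25 to 3.30) of KO1308 held *Cdkn2a*, at median depths of 3166 and 1517 UMIs. The thymus-side level was 5.58 (4.47 to 7.05) and 4.32 (2.72 to 7.33) times the B cell-side level. Negative thymus-side bins had lower median depths, of 2435.5 and 810 UMIs. The 2 sides were not matched on depth, and the part of depth in this difference was not tested.

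*Trp53* itself, the gene the KO mice lack, was counted at 14.5 CPM and 24.9 CPM over thymus-side bins of KO1134 and KO1308 and at 79.8 CPM in WT. Positive bins had 0.909 (0.679 to 1.20) and 1.20 (0.745 to 1.88) times the *Trp53* level of matched negative bins, intervals that include 1.

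Most positive bins rested on a single molecule. In KO1134, 1278 positive bins had 1 UMI, 217 had 2, 34 had 3 and 6 had 4 to 6, and in KO1308 735 had 1, 71 had 2, 7 had 3 and 3 had 4. If each UMI had been *Cdkn2a* with the same chance everywhere in a section, 159 and 31.5 bins would have had 2 UMIs and 12.9 and 1.01 would have had 3, so *Cdkn2a* UMIs were more often together than an even spread gives. Bins just inside and just outside the count rule, with 1 and 0 UMIs, had median depths of 3018.5 and 2435.5 UMIs in KO1134 and of 948 and 810 UMIs in KO1308. Near the other border of the rule, 18 and 9 positive bins had less than 1.5 times as many thymus as B cell UMIs in their window. Across that border, 12 and 7 B cell-side bins with *Cdkn2a* had less than 1.5 times as many B cell as thymus UMIs.

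The level ran with depth in opposite ways in the 2 sections. Bins of 500 to 1000, 1000 to 2000, 2000 to 4000 and over 4000 UMIs of KO1134 had 31.4, 68.3, 75.3 and 81.4 CPM of *Cdkn2a*. In KO1308, bins under 500 UMIs had 112 CPM and those of 500 to 1000, 1000 to 2000 and 2000 to 4000 UMIs had 68.4, 42.0 and 34.4 CPM. Shallow bins thus had the lowest level in one section and the highest in the other, and in what follows each positive bin was set against the 3 negative bins nearest in UMIs within its section. The 4605 and 2448 negative bins so chosen had the same median depth as the positive bins (3069 and 952.5 UMIs) and nearly the same number of genes (1845 against 1874 and 739 against 753.5).

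Positive bins lay near other positive bins. Among the 8 bins around a positive bin of KO1134, 22.2% were positive, against 17.5% around matched negative bins, a ratio of 1.27 that fell with distance to 1.08 at 270 µm. In KO1308 the shares were 374 of 5819 (6.43%) and 841 of 17519, a ratio of 1.34 that rose to 1.56 at 81 µm and was still 1.33 at 270 µm. Bins that touched, corners included, formed 540 groups in KO1134, of which 302 were single bins and the largest held 55, and 636 groups in KO1308, of which 518 were single and the largest held 10. All 36 positive bins of WT were single. The map of the 3 sections shows positive bins over most of the thymus of KO1134, except in the area around its large B cell zone, and in KO1308 most densely at one end of the lower tissue piece.

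**Figure D1:**
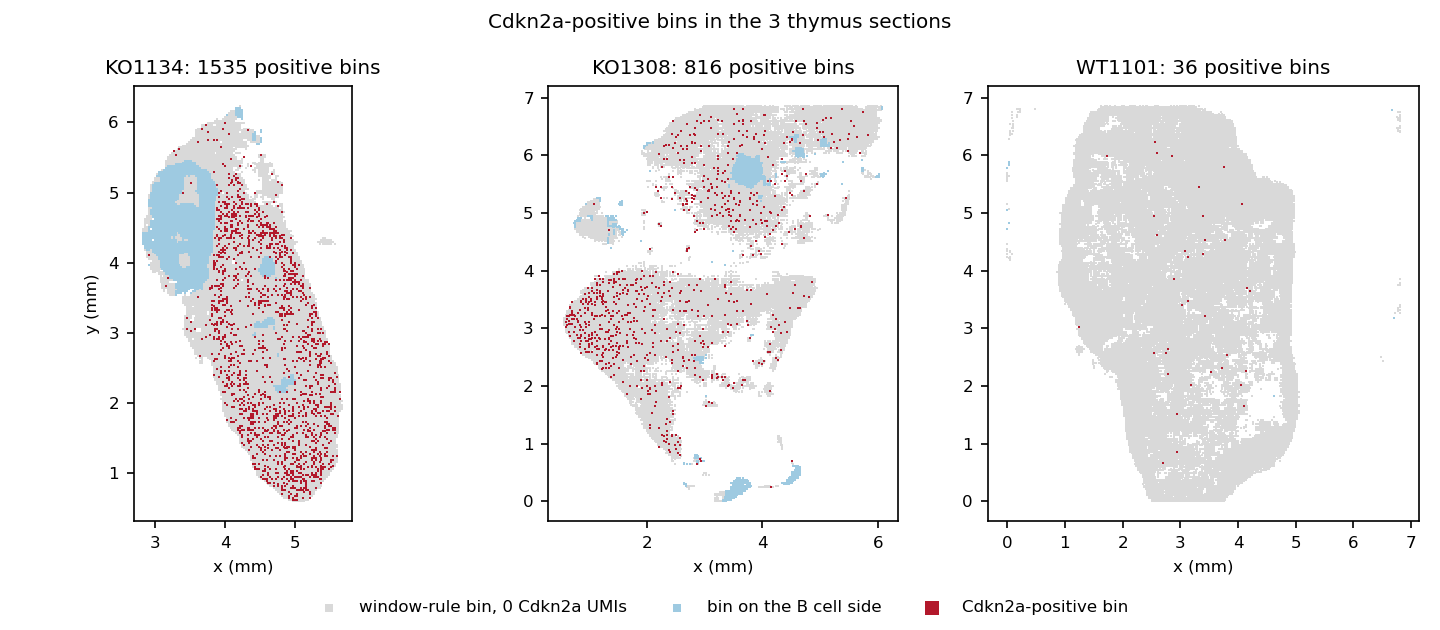
Position of kept bins in the 3 sections, x and y in mm, with *Cdkn2a*-positive bins in red (drawn larger than to scale), other thymus-side bins in grey and B cell-side bins in blue. Blue includes the 74 (KO1134) and 18 (KO1308) B cell-side bins that held *Cdkn2a*. Positive bins number 1535, 816 and 36, and they are denser in KO1134 than in the other sections.

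**Figure D2:**
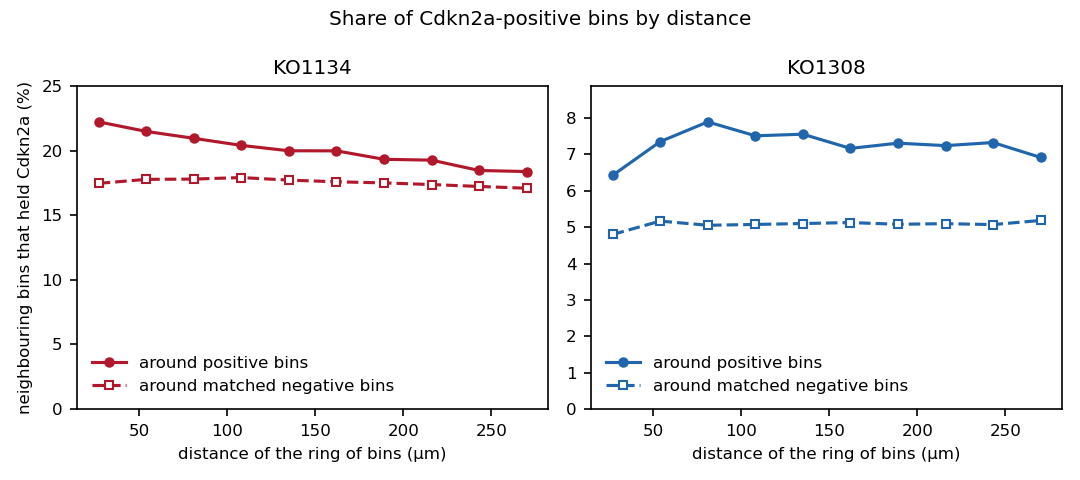
Share of bins that held *Cdkn2a* (%) in square rings at 27 to 270 µm around positive bins (filled circles) and around UMI-matched negative bins (open squares), for KO1134 (left) and KO1308 (right). The share around positive bins starts at 22.2% against 17.5% on the left and at 6.43% on the right, above the open squares in both.

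All genes were then compared between positive and UMI-matched negative bins. Bins of a section are not replicates, so UMIs were summed over the positive and over the negative bins of each KO section and the 4 sums were tested with edgeR's quasi-likelihood test, with section as a block and Benjamini-Hochberg adjustment over 13780 genes. *Cdkn2a* and the 9 genes of the window rule stayed out. Only 16 genes (0.116% of those tested) were higher in positive bins and 157 (1.14%) were lower, and 454 and 712 had an unadjusted p under 0.05. At these shares a list of a few genes would mostly have 0 called, so counts of 0 below say little about a list. With 2 sections the test has 1 residual degree of freedom and its spread was shared fully across genes, and 16 of the 157 genes called lower had opposite directions in the sections, which leaves 141 (1.02%). By counting error alone, the interval of the ratio excluded 1 on the high side for 12.5% of genes in KO1134 and 4.88% in KO1308 and on the low side for 11.2% and 4.4%, and in both sections for 189 genes (1.37%) on the high and 181 (1.31%) on the low side. When negative bins were taken from the same 7 × 7 window as their positive bin (local match, 4446 and 2442 bins), 0 of 13567 genes were higher (0%, with 350 at an unadjusted p under 0.05) and 6 (0.0442%) were lower, and the counting intervals excluded 1 in both sections for 25 (0.181%) higher and 19 (0.138%) lower genes. DESeq2 on the same sums called 0 genes higher and 26 lower, with 143 at an unadjusted p under 0.05, so the calls of higher genes below rest on edgeR and on negative bins taken from the whole section. Over all genes the median log2 ratio was 0.011 in KO1134 and -0.00010 in KO1308. Of the 13780 genes, 7306 had the same direction in both, a number that is not split into higher and lower here. Counts of list members higher or lower in both sections are therefore given below without a background share and carry no test. They do not show that a list differs from all genes.

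**Figure D3:**
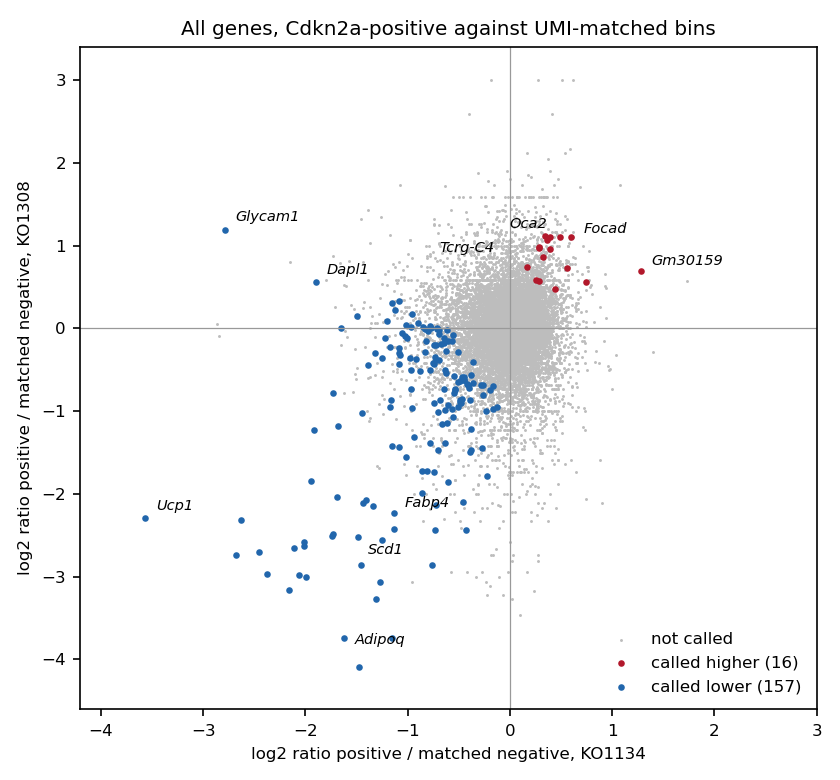
Log2 ratio of each gene's share of UMIs in *Cdkn2a*-positive against UMI-matched negative bins, in KO1134 (x axis) and in KO1308 (y axis), for genes counted in all 4 sums. The 16 genes called higher (red) have ratios of 1.13 to 2.43 and 1.39 to 2.17, and those of the 157 called lower that are counted in all sums (blue) reach down to *Ucp1* at 0.0844 and 0.204. *Glycam1* and *Dapl1* were called lower with opposite directions in the sections.

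Of the 16 genes higher in positive bins, all but *Gm30159* (1.17, described below) had a log2 fold change of less than 1. *Tcrg-C4*, a constant gene of the T cell receptor gamma chain, had 443 against 364 CPM in KO1134 and 109 against 55.8 CPM in KO1308, ratios of 1.22 (1.16 to 1.28) and 1.96 (1.51 to 2.52) and a log2 fold change of 0.47 ± 0.12 (SE; edgeR adjusted p = 0.0104). The constant genes of this family are near copies of each other, so reads may be split among them. *Rrp1b*, which acts in ribosome assembly in the nucleolus, had 293 against 245 and 420 against 280 CPM (log2 fold change 0.40 ± 0.11, adjusted p = 0.0241). *Clasp2*, which stabilises microtubule ends, had 111 against 99.0 and 241 against 144 CPM (0.40 ± 0.11, adjusted p = 0.0230). *Kntc1*, part of the spindle checkpoint complex at kinetochores, had 29.8 against 17.8 and 35.0 against 23.7 CPM (0.68 ± 0.20, adjusted p = 0.0455). These transcripts thus had ratios above 1 in both sections, with fold changes of less than 1 on the log2 scale. For *Kntc1* the ratio in KO1308 was 1.48 (0.943 to 2.27), an interval that includes 1. Against local negative bins of KO1308, *Rrp1b*, *Clasp2* and *Kntc1* had ratios of 0.956 (0.851 to 1.07), 0.928 (0.796 to 1.08) and 0.851 (0.559 to 1.26). *Tcrg-C4* had 1.40 (1.09 to 1.77) there.

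The other genes called higher have varied roles. *Oca2*, a melanosomal transport protein, had 146 against 120 and 174 against 87.6 CPM (log2 fold change 0.53 ± 0.11, adjusted p = 0.000390). *Aldh1b1*, a mitochondrial aldehyde dehydrogenase, had 91.2 against 65.0 and 43.5 against 20.1 CPM (0.60 ± 0.14, adjusted p = 0.00236). *Gfra1*, a receptor of the growth factor GDNF, and the antisense gene *Gm16277*, whose annotations overlap by 444 bases on opposite strands of chromosome 19, had fold changes of 0.52 ± 0.13 and 0.55 ± 0.14 on the log2 scale. *Ly6k* and the antisense gene *Gm17189*, which overlap by 3113 bases on chromosome 15, had 0.47 ± 0.13 and 0.61 ± 0.12. The use of strand in the counting is not given in the sources used here, so a read of such a pair may have been counted for either member. *Gm17276*, called higher at 0.39 ± 0.11, lies across from *Notch3*, whose own change of 0.37 ± 0.11 had an adjusted p of 0.0524. *Gm30159*, a long non-coding RNA, had the largest ratio in KO1134 (2.43, 1.83 to 3.23, from 92 UMIs) but only 7 UMIs in positive bins of KO1308 (1.62, 0.546 to 4.36). *Tenm4*, *Ildr2*, *Shisa3* and *Focad* complete the list, with fold changes of 0.44 to 0.72 on the log2 scale. Against local negative bins none of the 16 passed the test and 9 had a higher level in both sections. Local fold changes of the 16 ran from 0.01 for *Clasp2* to 0.69 for *Gm30159* on the log2 scale. Both of these genes had opposite directions in the sections. The local ratios were 1.06 and 0.928 for *Clasp2* and 1.92 (1.45 to 2.53) and 0.643 (0.240 to 1.48) for *Gm30159*.

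*Focad* is the gene called higher that lies nearest to *Cdkn2a*. It lies at bases 88094629 to 88411011 of chromosome 4 and had 30.3 against 20.0 CPM in KO1134 and 29.7 against 13.8 CPM in KO1308 (log2 fold change 0.72 ± 0.20, adjusted p = 0.0410). The direct neighbours did not pass the test. *Cdkn2b*, which encodes the related kinase inhibitor p15Ink4b next to *Cdkn2a*, had only 21 and 2 UMIs in positive bins, with ratios of 0.797 (0.468 to 1.30) and 0.375 (0.0418 to 1.59), and *Mtap*, a methionine salvage enzyme on its other side, had 1.15 (1.02 to 1.29) and 0.982 (0.654 to 1.44).

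Fat genes had the smallest p-values of all genes, and those called were lower in positive bins. Of 9 adipocyte markers tested, 8 were called lower and 0 higher, against 1.14% of all genes. *Ucp1*, the uncoupling protein of brown fat, had 2.98 against 35.3 CPM in KO1134 and 28.6 against 140 CPM in KO1308, a log2 fold change of -2.86 ± 0.20 (edgeR adjusted p = 3.25e-43). *Scd1*, a fatty acid desaturase, had 107 against 302 and 170 against 975.4 CPM (-1.94 ± 0.12, adjusted p = 1.31e-56), and *Adipoq*, the fat hormone adiponectin, had 7.67 against 23.6 and 5.30 against 70.7 CPM (-2.17 ± 0.24, adjusted p = 4.17e-17). *Lyve1*, a lymphatic vessel marker and no fat gene, was also called lower, with 1 UMI in positive and 124 in negative bins of KO1134 and 0 and 2 UMIs in KO1308. *Cox8b*, *Thrsp*, *Gpd1*, *Cox7a1*, *Pck1* and *Cidea* fell by 2.25 to 2.71 on the log2 scale and *Fabp4*, *Cfd*, *Car3*, *Cdo1*, *Fasn* and *Gpx3* by 1.06 to 1.66. Summed over the list, positive bins had 388 against 799 CPM of adipocyte genes in KO1134 and 491 against 2263 CPM in KO1308, ratios of 0.486 (0.462 to 0.510) and 0.217 (0.197 to 0.238). Against local negative bins the ratios were 0.834 (0.791 to 0.879) and 1.01 (0.909 to 1.13), and no fat gene passed the test. When only bins in the thymus area were used (8662 and 14269 bins whose window reached 50% of the share that the thymus genes take in the section, an alternative added after seeing the data), the ratios were 0.816 (0.766 to 0.869) and 0.703 (0.620 to 0.796), with *Scd1* (adjusted p = 0.00132) and *Gpx3* (adjusted p = 0.0497) still called lower.

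Mitochondrially encoded genes were lower in positive bins as well. All 13 tested were lower in both sections and 11 were called lower, against 1.14% of all genes, for example *mt-Nd4*, a subunit of complex I, at 953 against 1462 CPM in KO1134 and 851 against 1876 CPM in KO1308 (log2 fold change -0.87 ± 0.12, edgeR adjusted p = 1.75e-10). The summed ratios of 0.702 (0.694 to 0.709) and 0.553 (0.542 to 0.565) became 0.967 (0.956 to 0.977) and 1.00 (0.979 to 1.02) against local negative bins and 0.967 (0.956 to 0.978) and 1.04 (1.02 to 1.07) in the thymus area. The median bin had a mitochondrial share of 0.939% when positive and 0.947% when negative in KO1134, and 1.07% against 1.03% in KO1308. The part of fat in the mitochondrial difference was not tested. Nuclear-encoded genes of the respiratory chain had 0 of 16 called, with summed ratios of 1.02 (1.01 to 1.03) and 0.887 (0.863 to 0.913).

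The 6 genes lower against local negative bins were *Ccl21a* and the gene *4930578G10Rik* that overlaps it, *Ccl5*, *Fcgbp*, *Retnla* and *Mgp*. *Ccl21a*, a chemokine of medullary epithelium and lymph node stroma with near-identical paralogues, had 246 against 512 CPM over matched bins of KO1134 and 297 against 309 CPM in KO1308, and its local ratios were 0.700 (0.655 to 0.747) and 0.972 (0.846 to 1.11), with a local adjusted p of 4.89e-07. *Ccl5*, a chemokine of activated T cells, had local ratios of 0.772 (0.733 to 0.812) and 0.908 (0.732 to 1.12). *Mgp*, an inhibitor of calcification made by stromal cells, had 0.739 (0.681 to 0.801) and 0.960 (0.822 to 1.12). In all 6 genes the interval excluded 1 in KO1134, and in KO1308 it did so only for *4930578G10Rik* (0.870, 0.757 to 0.998).

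Genes of the DNA replication and mitosis lists had summed ratios above 1 in KO1134, and in KO1308 those of replication did, while none of the genes on these lists passed the test. *Kntc1*, called higher above, is on neither list. Of 22 DNA replication genes, 15 were higher and 1 lower in both sections, with a median log2 fold change of 0.21 against a local median of 0.07. Their summed level was 2768 against 2334 CPM in KO1134 and 3140 against 2853 CPM in KO1308, ratios of 1.19 (1.16 to 1.21) and 1.10 (1.06 to 1.15). *Pcna*, the sliding clamp of DNA polymerase, had ratios of 1.22 (1.16 to 1.28) and 1.17 (1.04 to 1.33) at an adjusted p of 0.419, and *Lig1*, the replicative ligase, had 1.33 (1.22 to 1.44) and 1.15 (0.937 to 1.39) at an adjusted p of 0.172. Of 24 mitosis genes, 9 were higher and 0 lower in both sections, with summed ratios of 1.25 (1.22 to 1.27) and 0.998 (0.956 to 1.04). The kinases *Cdk1* (1.33 and 1.25) and *Aurkb* (1.27 and 1.55) came nearest to the threshold, at adjusted p of 0.0637 and 0.0866. Against local negative bins KO1134 had ratios of 1.06 (1.04 to 1.08) for replication and 1.08 (1.06 to 1.11) for mitosis, and KO1308 1.03 (0.991 to 1.08) and 1.01 (0.963 to 1.05). In bins with at least 2 *Cdkn2a* UMIs, replication had ratios of 1.27 (1.22 to 1.33) and 1.28 (1.12 to 1.45) and mitosis 1.31 (1.25 to 1.38) and 1.03 (0.899 to 1.18). In the thymus area, the alternative described above, replication had 1.13 (1.11 to 1.16) and 1.03 (0.989 to 1.08) and mitosis 1.19 (1.16 to 1.21) and 0.940 (0.900 to 0.982), so that mitosis genes were on opposite sides of 1.

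Partners and targets of the 2 proteins did not pass the test either. Among 14 G1 cyclins, kinases, Rb and E2F genes, *Cdk6*, the p16Ink4a target, had 678 against 532 CPM in KO1134 and 156 against 123 CPM in KO1308, ratios of 1.28 (1.22 to 1.33) and 1.27 (1.04 to 1.54) with an adjusted p of 0.176, and *Cdk4* had 1.10 (1.04 to 1.17) and 0.862 (0.709 to 1.04). The related inhibitors *Cdkn2c* (1.20 and 0.956) and *Cdkn2d* (1.30 and 0.939) differed in direction between sections, while *Cdkn1a*, the p21 gene that p53 induces, had ratios of 0.536 (0.310 to 0.879) and 0.720 (0.242 to 1.80) from 19 and 6 UMIs. *Mdm2*, the p19Arf target, had 1.06 (0.925 to 1.21) and 0.938 (0.7006 to 1.24), and *Npm1*, the nucleolar partner of p19Arf, 1.06 (1.01 to 1.11) and 1.27 (1.16 to 1.40). Of 15 p53 target genes 1 was higher and 6 were lower in both sections, with summed ratios of 1.01 (0.962 to 1.05) and 0.913 (0.830 to 1.00). The 16 regulators of the locus, among them the Polycomb genes *Bmi1* (1.10 and 1.22) and *Ezh2* (1.18 and 0.973), had summed ratios of 1.02 (0.989 to 1.05) and 0.976 (0.921 to 1.04). *Myc*, an activator of p19Arf, had 86.1 against 71.6 and 181 against 127 CPM, ratios of 1.20 (1.07 to 1.35) and 1.42 (1.18 to 1.71), with an adjusted p of 0.0919.

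Secreted factors of senescent cells, 4 of which could be tested, had 0 called, against 0.116% of all genes called higher and 1.14% called lower. *Igfbp7* had ratios of 0.767 (0.694 to 0.847) and 0.803 (0.630 to 1.01) at an adjusted p of 0.0887, and the list summed to ratios of 0.752 (0.689 to 0.820) and 0.882 (0.732 to 1.06).

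Ribosomal protein genes (RPG) had 0 of 79 called, against 0.116% of all genes called higher and 1.14% called lower. Positive bins of KO1134 had 0.968 (0.965 to 0.971) times the RPG level of matched negative bins and those of KO1308 1.08 (1.07 to 1.08) times, so the sections went opposite ways, and the local ratios were 0.989 (0.986 to 0.992) and 0.984 (0.978 to 0.991). Nucleolar ribosome biogenesis genes, which process ribosomal RNA, had 12 of 18 genes higher and 0 lower in both sections with 0 called, and summed ratios of 1.14 (1.12 to 1.17) and 1.09 (1.03 to 1.15). *Fbl*, the fibrillarin gene, had 1.27 (1.19 to 1.36) and 1.25 (0.974 to 1.60) at an adjusted p of 0.189. The local ratios of the list were 1.06 (1.04 to 1.09) and 0.985 (0.932 to 1.04).

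Several T cell gene lists had ratios on opposite sides of 1 in the 2 sections, a difference that was not tested. Double-positive thymocyte genes had 1261 against 1123 CPM in KO1134 and 3358 against 3980 CPM in KO1308, ratios of 1.12 (1.09 to 1.16) and 0.844 (0.811 to 0.878). Their local ratios were 1.05 (1.02 to 1.08) and 0.978 (0.939 to 1.02). Of 11 tested, 1 was called lower, against 1.14% of all genes. It was *Cd8a*, at 0.703 (0.621 to 0.794) and 0.823 (0.745 to 0.907) with an adjusted p of 0.0381. *Cd8b1*, its partner chain and part of the window rule, had 0.594 (0.495 to 0.708) and 0.756 (0.674 to 0.847) without a test. Mature single-positive genes had 3 of 12 called lower, against 1.14% of all genes, and in none of the 3 did the interval exclude 1 in KO1308. *Ccr7*, a receptor for entry into the medulla, and *S1pr1*, the receptor for exit from the thymus, had ratios of 0.475 (0.392 to 0.572) and 0.356 (0.272 to 0.459) in KO1134 but 0.800 (0.524 to 1.19) and 1.11 (0.686 to 1.75) in KO1308. The third, *Ms4a4b*, had 0.583 (0.530 to 0.641) and 1.02 (0.842 to 1.24). *Trbc1*, a T cell receptor beta constant gene, had 1.16 (1.13 to 1.19) and 0.803 (0.744 to 0.866). V(D)J recombination and end joining genes also split, with summed ratios of 1.25 (1.20 to 1.29) and 0.921 (0.860 to 0.984). Their local ratios were 1.07 (1.03 to 1.11) and 0.994 (0.928 to 1.06). Gamma delta and innate-like T cell genes had 1 of 6 called higher, *Tcrg-C4*, against 0.116% of all genes. Their summed ratios were 1.19 (1.16 to 1.23) and 1.24 (1.10 to 1.40), against 1.05 (1.03 to 1.08) and 1.08 (0.953 to 1.21) with local negative bins. Notch pathway genes had 0 of 8 called and ratios of 1.12 (1.07 to 1.17) and 1.17 (1.06 to 1.28). With local negative bins the ratios were 1.03 (0.985 to 1.08) and 1.04 (0.948 to 1.15), intervals that include 1.

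The study names 16 of the tested genes for *Cdkn2a*-positive T cells, most of them from single-cell data of other *Trp53*-/- mice. Its cells are a subset of T cells, whereas a positive bin here is any thymus-side square with at least 1 *Cdkn2a* UMI. The counts below do not take account of the direction that the study reports for each gene. The study also names *Xrcc6*, *Dntt* and *Rag1* from thymus sections of the present kind, so for these the count is not independent evidence. Of the 16 genes, 0 were called, 3 were higher and 2 lower in both sections, and the summed ratios were 1.14 (1.12 to 1.16) in KO1134 and 0.938 (0.911 to 0.966) in KO1308. Against local negative bins 11 were higher and 0 lower in both sections. The local summed ratios were 1.05 (1.03 to 1.06) in KO1134 and 1.01 (0.980 to 1.04) in KO1308. *Dntt*, the template-free polymerase of V(D)J joining, had 1.27 (1.21 to 1.33) and 0.938 (0.848 to 1.04).

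Several lists of other cell types had summed ratios under 1 in KO1134. Its endothelial genes had a summed ratio of 0.582 (0.532 to 0.635), dendritic cell genes 0.724 (0.666 to 0.786), fibroblast genes 0.811 (0.769 to 0.855), B cell genes 0.850 (0.777 to 0.929) and class II presentation genes 0.766 (0.753 to 0.778). In KO1308 the same lists had 0.859 (0.729 to 1.01), 1.05 (0.869 to 1.26), 0.957 (0.854 to 1.07), 0.779 (0.618 to 0.975) and 1.02 (0.984 to 1.06). Against local negative bins these lists had 0.777, 0.846, 0.849, 0.891 and 0.862 in KO1134 and 0.913, 1.03, 0.974, 0.921 and 1.06 in KO1308. Called lower were 1 of 10 endothelial, 1 of 10 dendritic cell, 1 of 7 mimetic and 2 of 10 medullary epithelial genes, against 1.14% of all genes. *Ccl21a* was not matched to its list and is not in these counts. Genes called lower among the endothelial, dendritic cell and epithelial lists were *Glycam1* of high endothelial venules, with ratios of 0.145 (0.102 to 0.201) and 2.29 (1.11 to 4.60) in opposite directions, *Fscn1* of activated dendritic cells (adjusted p = 0.000191), *Reg3g* of mimetic epithelial cells, with ratios of 0.318 (0.230 to 0.430) and 1.00 (0.803 to 1.24), and, in medullary epithelium, *Krt14* (adjusted p = 0.0123) and *Aire*, the regulator of tissue antigens (0.543, 0.402 to 0.722, and 0.697, 0.422 to 1.11, adjusted p = 0.0421), beside *Ccl21a*. Cortical epithelial genes had 0 of 7 called, 6 higher in both sections and summed ratios of 1.09 (1.07 to 1.10) and 1.07 (1.03 to 1.11), which became 0.986 (0.970 to 1.00) and 1.00 (0.967 to 1.04) against local negative bins. The part of other cell types in the differences of T cell and cell cycle genes was not tested.

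**Figure D4:**
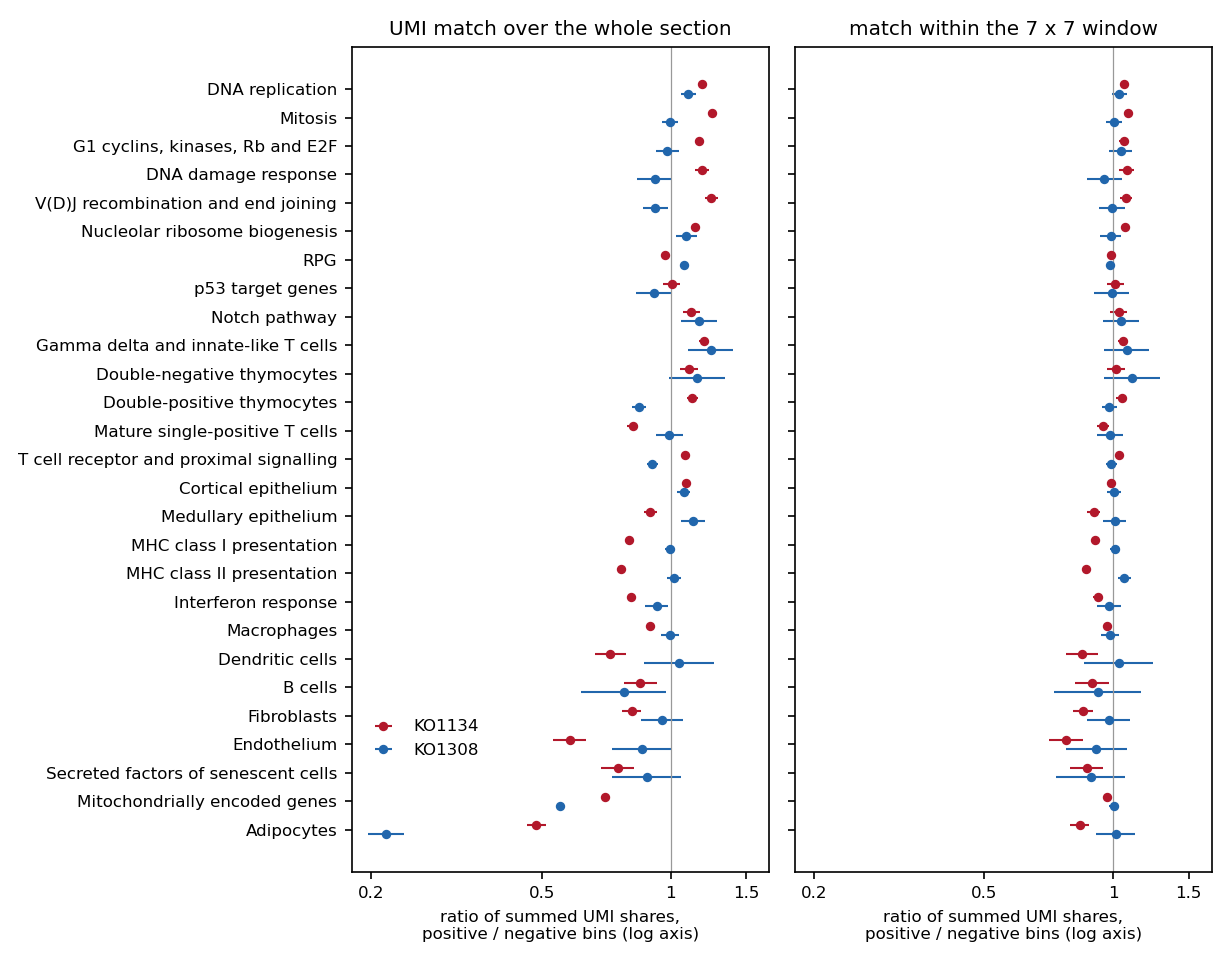
Ratio of summed UMI shares between *Cdkn2a*-positive and negative bins (log axis) for 27 gene lists, in KO1134 (red) and in KO1308 (blue), with bars for the 95% exact conditional binomial interval, which covers counting error only. With the match on UMIs (left) ratios run from 0.217 for adipocyte genes to 1.25, and with the match within the 7 × 7 window (right) most lie close to 1.

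Sorted by the chromosome of the gene, a pattern chosen after the values were seen and given with no test, the differences were uneven. Over 7587 genes with at least 100 UMIs in each section the median log2 ratio was 0.024 in KO1134 and 0.010 in KO1308. The 504 genes of chromosome 5 had medians of 0.099 and 0.104, the highest of any chromosome in KO1308. Of these genes 73.4% and 65.3% were above a ratio of 1, against 55.6% and 51.0% of all 7587 genes. Other chromosomes had like shares in KO1134, such as 76.3% on X and 72.2% on 18. Chromosome 5 also held 72 of the 454 genes higher at an unadjusted p under 0.05, which is 8.05% of its genes against 3.29% of all genes. In KO1134 chromosomes X, 14, 18, 10 and 15 had medians of 0.104, 0.092, 0.089, 0.085 and 0.085, while in KO1308 the same chromosomes had -0.040, 0.033, 0.012, -0.004 and 0.053. Chromosome 4, which carries *Cdkn2a*, had 0.050 and 0.010. Against local negative bins the medians of chromosome 5 were 0.032 and -0.018.

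**Figure D5:**
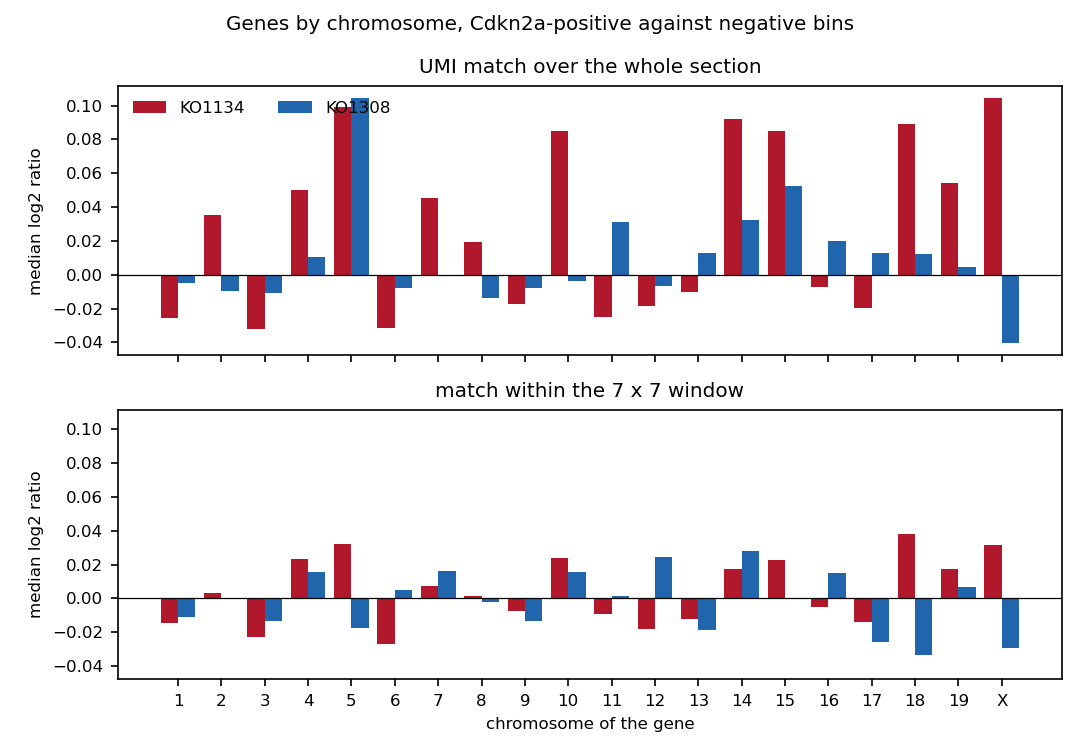
Median log2 ratio of genes on chromosomes 1 to 19 and X between *Cdkn2a*-positive and negative bins, for KO1134 (red) and KO1308 (blue), with the match on UMIs (top) and within the 7 × 7 window (bottom). In the top panel chromosome 5 stands at 0.099 and 0.104 in both sections, and in the bottom panel medians stay between -0.034 and 0.038.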

How the data were processed

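The authors deposited, for each of the 3 sections, a table of raw counts of UMIs per gene and spot (BMKMANU S1000 slides processed with BSTMatrix, per the study's methods). The labels' processing notes name GRCm38. Spots were summed into 27 µm bins and filtered at 300 genes and 30% mitochondrial UMIs. The sections held 31237062 (KO1134), 21089885 (KO1308) and 41581477 (WT1101) UMIs. Sums over bins of the KO sections were tested with edgeR 4.0.16 (R 4.3.3; TMM, quasi-likelihood, section as a block, two-sided) for genes with at least 100 UMIs over the 4 sums. Positive and negative sums are paired because they come from the same section. Each KO section came from 1 mouse, so n = 2. Ratios carry 95% exact conditional binomial intervals for counting error only, since spread between mice is not in them. No doublet caller was run, since a bin is not a cell. In a test on simulated data of this comparison with 13761 genes, 48.0% of genes changed 1.5-fold and 87.9% of those changed 2-fold were called, and 0.0516% of unchanged genes.

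The bins, the 45 gene lists (546 of 549 genes matched) and the tests were chosen with earlier results of these data known. Named genes were list members, the 15 with the smallest p per direction among calls with the same direction in both sections, and the genes of the rule. They were also taken from the 10 per direction and KO section whose counting interval lay farthest from 1, among them *Kntc1* and *Lyve1*. Members of that set that were higher but not called are not named in this report. *Ccl5*, *4930578G10Rik*, *Fcgbp*, *Retnla* and *Mgp*, called against local negative bins, were named after their values were seen. Positions are from the GRCm38 annotation.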

Additional observations from a re-analysis of the deposited data

Results flagged for a closer look

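With the match on UMIs, the WT section went opposite to both KO sections in 2 gene lists, with a counting interval that excluded 1 in all 3 sections. Other lists, such as fibroblast genes at 2.71 (1.57 to 4.67) in WT against 0.811 (0.769 to 0.855) and 0.957 (0.854 to 1.07), were on opposite sides with an interval that included 1 in at least 1 section. Interferon response genes had a ratio of 1.92 (1.42 to 2.59) between the 36 *Cdkn2a*-positive WT bins and their matched negative bins, from 75 UMIs, against 0.810 (0.791 to 0.830) in KO1134 and 0.929 (0.874 to 0.988) in KO1308. Against local negative bins they had 1.43 (1.07 to 1.90) in WT, 0.920 (0.898 to 0.942) in KO1134 and 0.977 (0.918 to 1.04) in KO1308. The last interval includes 1. Gamma delta and innate-like T cell genes had a ratio of 0.324 (0.0840 to 0.903) in WT, from 4 UMIs in positive bins, against 1.19 (1.16 to 1.23) and 1.24 (1.10 to 1.40). Their local ratios were 0.323 (0.0834 to 0.900) in WT, 1.05 (1.03 to 1.08) in KO1134 and 1.08 (0.953 to 1.21) in KO1308. The difference between genotypes was not tested, since there was 1 WT section.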

How the results depend on the processing

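The counts of 16 genes higher and 157 lower depended on the processing. With edgeR they were 0 and 42 with 1 negative bin per positive bin (773 genes at an unadjusted p under 0.05), 58 and 278 against all negative bins without a match, 0 and 6 against local negative bins (747 unadjusted), 2 and 70 for bins with at least 2 *Cdkn2a* UMIs, 6 and 89 in 20 µm bins, 41 and 339 in 50 µm bins, 2 and 25 in bins with T cell receptor complex genes, 6 and 98 without TMM, and 6 higher with no filter on low counts. Without the replicate block, where the sections differ more than the bins, they were 0 and 0. DESeq2 called 0 and 26 (143 unadjusted). Bins in the thymus area, added after seeing the data, gave 0 and 5 (806 unadjusted). None of the 16 genes called higher passed with a local match, DESeq2, 1 negative bin per positive bin, at least 2 *Cdkn2a* UMIs, T cell bins only, no replicate block or in the thymus area, and 3 of 16 passed in 20 µm bins. All genes called lower with a local match, DESeq2, 1 negative bin per positive bin or in the thymus area were among the 157. The mean share of positive bins of 10.1% was 1.53% with at least 2 UMIs and 26.9% in 50 µm bins, and 4.93% to 15.3% with 1 section left out. Leaving out a section leaves a value with no test for genes. The direction turned for the log2 ratio of mitochondrially encoded genes (0.0058) and the fold change of *Gpd1* (0.017) in the thymus area, for cortical epithelium (-0.0084), *Car3* (0.0063), *Cidea* (0.24) and *Ucp1* (0.30) with the local match, and for plasma cells (-0.026) in 20 µm bins. The cause was not tested. Depth limits what single bins show, since most positive bins hold 1 UMI.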

Other observations

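In squares of 8 × 8 bins (216 µm), the level of *Cdkn2a* ran from 0 to 205 CPM (median 70.2) over 176 squares of KO1134 and from 0 to 620 CPM (median 48.8) over 313 squares of KO1308. As a description over squares that share a library, its Spearman's rho with UMIs per bin was 0.359 and -0.300. With the summed level of DNA replication genes it was 0.683 and -0.0071, with mitosis genes 0.675 and -0.031, with nucleolar ribosome biogenesis genes 0.640 and 0.151, and with cortical epithelial genes 0.565 and 0.201. Among 6816 genes, whose median rho was 0.110 and -0.015, those most like *Cdkn2a* in both sections were *Pabpc1*, which binds poly(A) tails (0.480 and 0.403), and *Myc* (0.421 and 0.323).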
